A study of Mus musculus with 25 samples.

Results

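Cholesterol biosynthesis was examined in neuronal nuclei of the mouse hippocampus through 8 of its enzymes, Hmgcs1, Idi1, Fdps, Fdft1, Sqle, Lss, Cyp51 and Dhcr7, out of 24411 genes measured in each of 3 experiments. The 8 were chosen from values of these same experiments, the normalized counts of the libraries compared between groups. Their differences are therefore given as descriptions, without p-values. Flow sorting of hippocampal tissue from male mice collected nuclei positive for both Hoechst and NeuN, whose RNA was sequenced in 25 libraries. The aging experiment compared 3 Young wild-type libraries (3 months of age) with 2 Aged wild-type libraries (18 months). In the overexpression experiment, young mice (3 months) received lentivirus carrying Ftl1 (Ftl1 OE, 7 libraries) or GFP (Control GFP, 5 libraries) behind the synapsin-1 promoter, which is active in neurons, injected on both sides into CA1 and the dentate gyrus. In the knockdown experiment, aged mice (18 months) received virus carrying a short hairpin RNA against Ftl1 (Ftl1 KD, 4 libraries) or against luciferase, a gene mice lack (Control sh-Luc, 4 libraries), at the same sites. Sorted nuclei came from the whole hippocampus, and NeuN does not tell infected neurons from uninfected ones. For both virus experiments the sources used here do not say that each library was a separate mouse, so p-values measure the spread between libraries, which may in part be technical.

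Cells build cholesterol from acetyl-CoA through mevalonate, isoprenoid diphosphates and squalene, which is closed into lanosterol and then trimmed and reduced to cholesterol. Transcription of most genes of the pathway is driven together by SREBP-2, the product of Srebf2, when sterols in the endoplasmic reticulum run low. The brain makes its own cholesterol because the blood-brain barrier keeps out lipoproteins, astrocytes supply neurons with it on ApoE particles, and neurons dispose of a surplus through the hydroxylase Cyp46a1.

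Depth differed widely between the experiments. Libraries held 7969282 to 9537872 reads in the aging experiment and 9943996 to 17034325 in the overexpression experiment. In the knockdown experiment the sh-Luc controls 1, 2, 3 and 5 held 103394, 358560, 68092 and 318645 reads. The libraries labelled Ftl1 KD 1, 3, 4 and 5 held 97104, 96831, 48902 and 59886 reads. Only 1460 genes reached a mean of 10 normalized counts there and were tested, against 13712 in the aging and 14099 in the overexpression experiment. Of the 8 enzymes, all were tested in the aging and overexpression experiments, and 6 in the knockdown experiment, where Idi1 and Lss fell below that mean. Normalized counts are reads divided by the size factor of the library. Each experiment was normalized separately, so levels are compared within an experiment.

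Ftl1, the ferritin light chain that both viruses were meant to change, was higher where the label says knockdown and not higher where it says overexpression. Normalized counts of Ftl1 in the sh-Luc controls were 49.1, 45.6, 56.2 and 24.2, while the libraries labelled Ftl1 KD held 117, 106, 109 and 139.6. Every library labelled Ftl1 KD lay above every control, 2.698 times on average (p = 0.0286 by a two-sided exact permutation test, and no split of the 70 possible could give less), and limma called Ftl1 higher (log2 fold change 1.47, SE 0.25, adjusted p = 0.000223). In the overexpression experiment, Ftl1 in GFP controls 9901, 9904, 9905, 9925 and 9926 was 7316, 4580.4, 28310, 7415 and 9953. The 7 libraries labelled Ftl1 OE ran from 4738 to 7663, with a median of 5171. Their mean was 0.518 times that of the controls (p = 0.111 by the same exact permutation test, smallest possible 0.00253), GFP control 9905 stood far above all other libraries, and without controls 9905 and 9926, left out after seeing the data, the log2 fold change was −0.10, so a lower level is not established there. With the Aged libraries at 4247 and 4272 and the Young libraries at 1685, 1925 and 2141, Ftl1 was 2.22 times higher with age (exact permutation p = 0.2, two-sided and the smallest possible). With age limma did not call Ftl1 (log2 fold change 1.16, SE 0.26, adjusted p = 0.397), while DESeq2 called it higher. Ftl1 has near-identical pseudogenes, and how the counting divided reads between such copies is not known. Since Ftl1 RNA did not follow the labels, clearly so only in the knockdown experiment, the groups are called here the libraries labelled Ftl1 KD or Ftl1 OE, or KD-labelled and OE-labelled, and a direction compares them with their controls without implying less or more Ftl1.

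Neuronal markers had the highest sum of the cell type lists in most libraries, though glial RNA was present as well, and in OE-labelled library 9923 astrocyte markers exceeded them. In the Young libraries the 8 neuronal markers, led by Syt1, summed to 37514, 47765 and 46334 normalized counts, and in the Aged libraries to 47377 and 46641. Astrocyte markers there summed to 4294 to 8474, oligodendrocyte markers to 3116 to 6822, microglial markers to 378 to 1082, and endothelial markers to 0 to 76.1. In the overexpression experiment the neuronal sums ran from 56559 to 81219, led by Slc17a7, beside 12212 to 62522 for astrocyte markers and 22895 to 48149 for oligodendrocyte markers. In the knockdown experiment neuronal sums ran from 198.5 to 297, led by Syt1. In KD-labelled library 5 the newborn neuron list, led by Tubb3, summed to as much as the neuronal list. Only 2 of the 8 genes of that newborn neuron list, Stmn1 and Tubb3, reached the tested mean.

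The level of an enzyme per kilobase of exon gives an order within each experiment. Among the Young libraries the mean level per kilobase was highest for Sqle, squalene epoxidase, at 189.8 ± 17.6 (SD, n = 3), then Cyp51, the lanosterol demethylase, at 186 ± 58.0, and Fdft1, squalene synthase, at 169.5 ± 9.83. Their ranges over the 3 libraries overlapped. Fdps, farnesyl diphosphate synthase, followed at 136 ± 24.4 per kilobase and Hmgcs1, which makes HMG-CoA, at 133.5 ± 17.8, also overlapping each other. A clear step separated these 5 from Dhcr7, which catalyses a closing reduction, at 64.3 ± 25.2 per kilobase, Lss, lanosterol synthase, at 54.1 ± 12.5, and Idi1, the isopentenyl diphosphate isomerase, at 53.8 ± 25.5, which overlapped among themselves. In the GFP controls the order per kilobase was led by Fdps (702 ± 373, n = 5) and Fdft1 (539 ± 192), and every control had more Fdft1 per kilobase than any had Sqle (154 ± 44.2). Lss was lowest per kilobase there, at 28.7 ± 10.3. In the sh-Luc controls Hmgcs1 had the highest mean per kilobase, at 2.96 ± 3.12 (n = 4), overlapping Fdps, and Idi1 the lowest, at 0.0586 ± 0.0677. Hmgcs1 also had the highest mean per kilobase in the KD-labelled libraries, at 9.21 ± 1.55 (n = 4), overlapping Fdps, and there Lss was lowest, at 0.481 ± 0.161. The exons of Lss span 10787 bases together, the longest of the 8, which lowers its level on this scale.

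The 8 genes lie apart on the mouse genome (GRCm38), except that chromosome 13 carries both Hmgcs1 (chr13:119690379-119708260, plus strand) and Idi1 (chr13:8885501-8892451, plus strand) far from each other. Fdps occupies chr3:89093588-89101959 (minus strand) and overlaps Gm43738, annotated as protein coding on the same strand, so reads of the pair may have been divided between them. Fdft1 (chr14:63145150-63179578, minus strand) overlaps Ctsb on the other strand, and Cyp51 (chr5:4081145-4104746, minus strand) overlaps Akap9 in the same way. Sqle (chr15:59315077-59331192, plus strand) and Dhcr7 (chr7:143823145-143848410, plus strand) overlap no annotated gene. Lss (chr10:76531588-76557138, plus strand) and Hmgcs1 each have an annotated antisense transcript, and Gm48574 lies opposite Idi1. Whether the counting used strand is not stated, so counts of the overlapping genes, and of Idi1 beside its near copy Idi2, are uncertain.

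Promoters in the RefSeq annotation of GRCm38.p6 were found for 5 of the 8 enzymes (Hmgcs1, Idi1, Lss, Cyp51 and Dhcr7, 7 promoters in all, 3 of them of Dhcr7), and none was at hand for Fdps, Fdft1 and Sqle. In the 250 bases before each start site, 3 motifs were searched on both strands: TCACNCCAC, the core of the sterol regulatory element that SREBP proteins bind, CCAAT, bound by NF-Y, and GGGCGG, the GC box. CCAAT was found for 5 of the 5 genes, in 5 of 7 promoters, and in 33.8% of all 32851 promoters of this length. For Dhcr7 it lay only in the promoter at chr7:143829964-143830213, whose 250 bases are all annotated as exon. The Dhcr7 promoter at chr7:143822917-143823166, with 22 exon bases, held no CCAAT. The GC box was found for 5 of the 5 genes, in 6 of 7 promoters, and in 32.7% of all. TCACNCCAC was found for Hmgcs1 alone, 137 bases before its start site, and in 1.05% of all promoters. Hmgcs1 also carries CCAAT on the opposite strand 237, 176 and 45 bases before the start. Lss has CCAAT on the opposite strand 62 bases before its start and no match to TCACNCCAC. The promoters of Hmgcs1 (chr13:119690101-119690350, plus strand) and of Lss (chr10:76531355-76531587, plus strand, without the annotated exon bases) are printed because Hmgcs1 alone held all 3 motifs, while Lss took a course of its own with age. Capitals mark TCACNCCAC and CCAAT, the latter reading ATTGG where it lies on the opposite strand. A match describes letters and does not show that a protein binds there.
Hmgcs1 promoter: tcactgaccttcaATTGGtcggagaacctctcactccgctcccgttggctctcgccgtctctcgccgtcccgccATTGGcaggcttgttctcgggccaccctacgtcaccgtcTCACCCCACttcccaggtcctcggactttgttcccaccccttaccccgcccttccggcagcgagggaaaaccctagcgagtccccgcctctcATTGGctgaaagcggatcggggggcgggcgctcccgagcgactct
Lss promoter: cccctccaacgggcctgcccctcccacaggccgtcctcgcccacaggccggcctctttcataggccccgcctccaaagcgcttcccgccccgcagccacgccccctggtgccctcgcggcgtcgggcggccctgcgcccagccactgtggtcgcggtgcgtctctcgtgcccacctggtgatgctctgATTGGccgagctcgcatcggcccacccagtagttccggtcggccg

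The knockdown experiment asked how lowering Ftl1 in aged mice changes the RNA of hippocampal neurons. All 8 enzymes had a higher mean in the KD-labelled libraries than in the sh-Luc controls, in libraries whose Ftl1 was also higher. Summed over the 8, normalized counts were 62.3, 54.4, 97.4 and 45.6 in sh-Luc controls 1, 2, 3 and 5, resting on 66, 135, 52 and 109 reads. The KD-labelled libraries 1, 3, 4 and 5 reached 165, 171, 178.5 and 154, resting on 172, 190.0, 98 and 105 reads. Every KD-labelled library lay above every control, with control 3 the highest of the controls. Among the 1460 tested genes, limma called 354 (24.2%), of which 154 were higher (10.5%) and the rest lower (13.7%), and with every library centred on its median 197 were higher and 161 lower. Of the 6 tested enzymes, 4 were called higher (Hmgcs1, Fdps, Fdft1 and Sqle), and 0 lower. Since the choice of the 8 drew on this contrast, nothing is read from that count. The median log2 fold change of the 6 was 1.23, beside −0.01 over all tested genes.

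Hmgcs1, which commits acetyl units to the pathway as HMG-CoA, was at 14.2, 3.23, 33.7 and 3.34 normalized counts in controls 1, 2, 3 and 5, and at 33.6, 46.9, 49.2 and 39.7 in the KD-labelled libraries (log2 fold change 2.11, SE 0.45). Controls 2 and 5, the deepest libraries, were the low ones, and control 3 reached the range of the KD-labelled libraries, so the groups overlapped. Without control 3 the log2 fold change of Hmgcs1 was 2.71. With controls 2 and 5 both left out, a choice made after seeing the data, it was 0.90 and was not called.

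Idi1 turns isopentenyl diphosphate into its reactive isomer. It had 0, 0.403, 0 and 0.418 normalized counts in the controls and 11.5, 11.7, 3.64 and 8.81 in the KD-labelled libraries. All KD-labelled libraries lay above all controls. The counts stand for 2 reads in the controls and 33 in the KD-labelled libraries, a ratio of 31.6 after scaling by size factors (95% interval 8.07 to 271, exact, covering counting error only). Since the choice of Idi1 drew on this contrast, the interval describes the pooled reads and is not read as a test. Its mean was too low for the test.

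Fdps joins isoprenoid units into farnesyl diphosphate, from which both sterols and prenyl groups are made. It was at 11.3, 9.28, 9.36 and 11.3 normalized counts in the controls and at 24.0, 28.0, 41.9 and 22.0 in the KD-labelled libraries (log2 fold change 1.37, SE 0.32). The controls lay close together, the groups did not overlap, and KD-labelled library 4 was the highest. Fdft1, the first enzyme committed to sterols, was at 6.61, 14.9, 5.62 and 3.76 in the controls and at 32.6, 27.1, 20.04 and 19.1 in the KD-labelled libraries (log2 fold change 1.68, SE 0.39). Control 2 was the highest control and still lay below the lowest KD-labelled library.

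Sqle, which adds oxygen to squalene and is a slow step of the pathway, was at 15.1, 8.07, 13.1 and 10.9 normalized counts in the controls and at 27.8, 26.1, 20.04 and 29.4 in the KD-labelled libraries (log2 fold change 1.09, SE 0.32). Again the groups did not overlap, and library 4 was the lowest of the KD-labelled ones. Together with Fdps and Fdft1, Sqle made 3 tested enzymes with every KD-labelled library above every control, as 11.8% of all tested genes were (173 genes). The choice of the 8 drew on this contrast, so nothing is read from that share. Lss, which folds the squalene epoxide into lanosterol, stayed low throughout, at 1.89, 2.02, 1.87 and 4.598 in the controls and 6.71, 2.71, 5.46 and 5.88 in the KD-labelled libraries. Control 5 stood above the other controls and above KD-labelled library 3, so the groups overlapped. Its 19 and 17 reads gave a ratio of 1.71 (95% interval 0.835 to 3.48, exact, covering counting error only), and this interval too is not read as a test.

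Cyp51 removes a methyl group from lanosterol and was at 11.3, 8.07, 20.6 and 2.93 normalized counts in the controls and at 18.2, 12.6, 25.5 and 13.2 in the KD-labelled libraries (log2 fold change 0.85, SE 0.44, not called). Control 3 exceeded 3 of the 4 KD-labelled libraries. Single controls moved the log2 fold change of Cyp51 widely, to 1.22 without control 3, where it was called, and to 0.40 without control 5. With controls 2 and 5 both left out, after seeing the data, it was 0.12. Dhcr7 was at 1.89, 8.47, 13.1 and 8.36 in the controls and at 10.5, 16.2, 12.7 and 16.2 in the KD-labelled libraries (log2 fold change 0.93, SE 0.49, not called). Control 1 was low and control 3 lay among the KD-labelled libraries, so the groups overlapped. Without control 1 the log2 fold change of Dhcr7 was 0.45, and with control 1 as the lone control, chosen after seeing the data, it was 2.35.

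**Figure D1:**
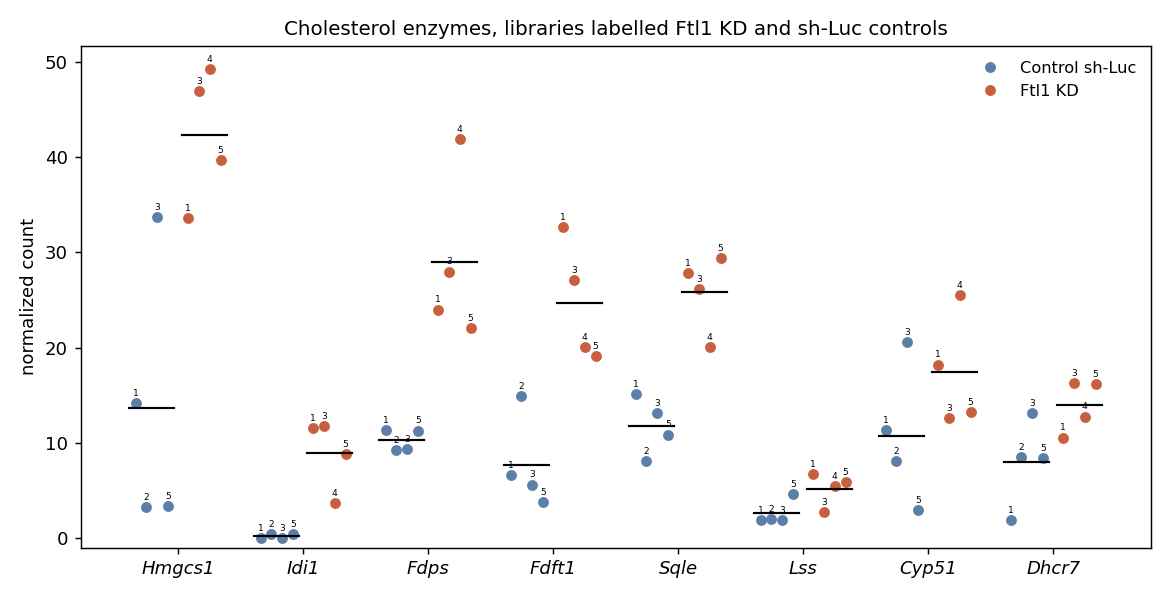
Normalized counts of the 8 enzymes in each library of the knockdown experiment: blue points are sh-Luc controls, orange points the libraries labelled Ftl1 KD, small numbers the replicate, and black lines the group means. Fdps, Fdft1, Sqle and Idi1 show no overlap between the groups, whereas control 3 (33.7) reaches the KD-labelled libraries for Hmgcs1.

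In the plot of single libraries, the groups of Idi1, Fdps, Fdft1 and Sqle do not overlap, and those of Hmgcs1, Lss, Cyp51 and Dhcr7 do. Calls changed with the tool, the filter and the libraries used. Without the filter on the mean, Idi1 entered the fit and was called, and Sqle was no longer called. edgeR called the same 4 enzymes, among 420 genes called in all, and DESeq2 called 3, without Hmgcs1, among 348. With controls 2 and 5 left out, limma called 2 (Fdps and Fdft1), among 119 genes called in all. With control 1 as the lone control, after leaving out the 3 with the highest share of ribosomal RNA precursor, 3 were called (Fdft1, Hmgcs1 and Dhcr7), and there the lone control was assumed to vary like the other libraries.

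Other features of the knockdown libraries moved with the enzymes, and their part in the result was not tested. Reads on Rn45s, the ribosomal RNA precursor, made up 31.9%, 55.3%, 52.9% and 49.4% of the reads in controls 1, 2, 3 and 5, and 34.5%, 30.4%, 33.6% and 30.3% in the KD-labelled libraries. Rn45s was called lower (log2 fold change −1.005, SE 0.27, limma adjusted p = 0.00908), with control 1 inside the range of the KD-labelled libraries. Its call was lost in 1 of 8 fits without a single library and in 1 of 9 other settings. With controls 2 and 5 left out, after seeing the data, it was also lost (log2 fold change −0.67). With control 1 as the lone control the log2 fold change of Rn45s was −0.11. Of 7 long noncoding RNAs kept in the nucleus, 4 were tested and all 4 were called lower, Malat1 (log2 fold change −1.87, limma adjusted p = 5.47e-06), Snhg11 (−1.80, 5.47e-06), Meg3 (−1.59, 8.68e-05) and Miat (−2.46, 0.000541). Their list, led by Malat1, summed to 1004, 619, 697 and 1235 normalized counts in the controls and to 322, 234.5, 219 and 229 in the KD-labelled libraries.

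Cell type markers differed as well, and their part in the enzymes' values was likewise not tested. Of 8 markers of newborn neurons, both tested ones were called higher, Stmn1 (log2 fold change 1.52, limma adjusted p = 9.47e-05) and Tubb3 (1.35, 0.000324). That list, led by Tubb3, summed to 80.2, 57.7, 99.2 and 69.8 normalized counts in the controls and to 197, 187, 180.3 and 238 in the KD-labelled libraries. Eomes, which marks intermediate progenitors, was at 0 in every library, and Sox4, Igfbpl1 and Draxin had a median of 0 over the libraries. Whether the higher sums mark newborn neurons was not tested. Of 8 oligodendrocyte markers, both tested ones were called lower, Mbp (log2 fold change −1.87, limma adjusted p = 0.000433) and Cnp (−1.88, 0.0484). The list, led by Mbp, summed to 63.2, 97.2, 74.9 and 39.7 in the controls and to 19.2, 24.4, 10.9 and 13.2 in the KD-labelled libraries. Among 8 neuronal markers, 5 were tested, Gad1 was called higher (log2 fold change 1.49, limma adjusted p = 0.0038) and Slc17a7 lower (−1.35, 0.0327), a call of Slc17a7 that edgeR, DESeq2 and 4 of 8 fits without a single library did not make, and the list summed to 297, 281, 198.5 and 263 in the controls and to 243, 233, 226 and 238 in the KD-labelled libraries. Astrocyte markers, led by Aldoc, summed to 73.6, 67.0, 35.6 and 47.2 in the controls and to 72.9, 68.5, 82.0 and 79.3 in the KD-labelled libraries. Of the 3 tested among 8, Slc1a3 was called higher (log2 fold change 2.05, limma adjusted p = 0.000541), and Gjb6 was at 0 throughout. For precursors of oligodendrocytes, 1 of 5 markers was tested, Olig1, the most abundant (log2 fold change 1.40, limma adjusted p = 0.0524, called higher by edgeR and DESeq2), and sums were 10.4, 5.24, 16.9 and 2.93 in the controls and 16.3, 18.0, 31.0 and 17.6 in the KD-labelled libraries. Microglial markers, led by C1qb, summed to 5.66, 17.8, 13.1 and 9.20 in the controls and to 11.5, 3.61, 1.82 and 1.47 in the KD-labelled libraries, with 0 of 8 tested. Endothelial markers summed to at most 2.94, and Pecam1, Flt1, Cdh5 and Slco1a4 were at 0. In bulk nuclei, fewer cells of a type and less RNA per cell cannot be told apart.

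**Figure D2:**
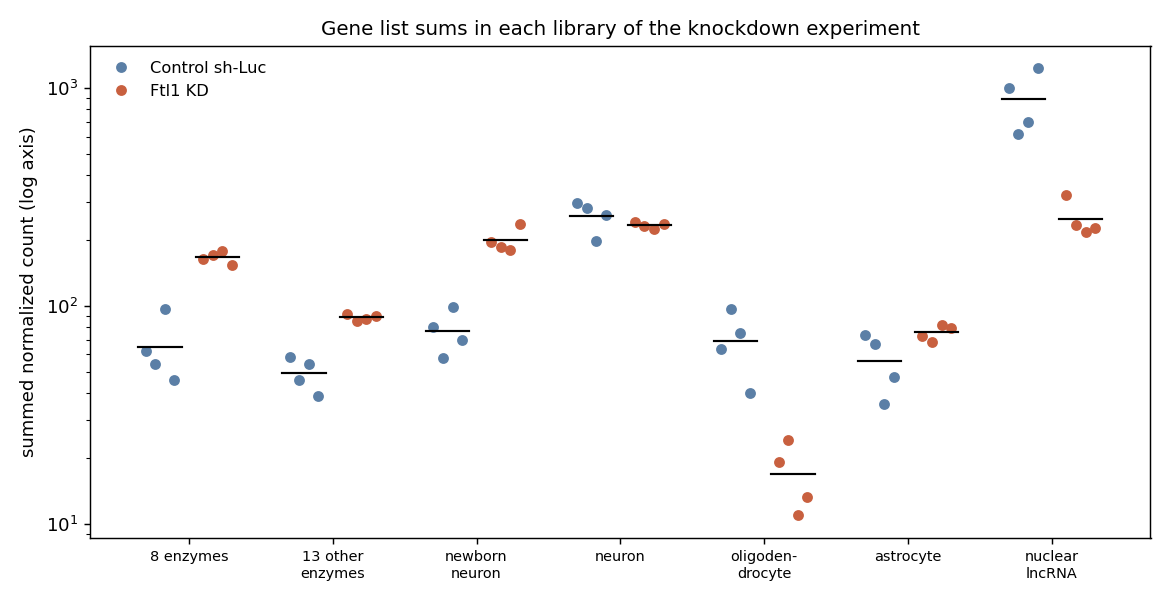
Summed normalized counts (log axis) of gene lists in each library of the knockdown experiment, with sh-Luc controls in blue, libraries labelled Ftl1 KD in orange and group means as black lines. The 8 enzymes span 45.6 to 97.4 in the controls and 154 to 178.5 in the KD-labelled libraries. The newborn neuron list, led by Tubb3, is higher in the KD-labelled libraries, and oligodendrocyte markers and nuclear long noncoding RNA are lower.

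The plot of list sums sets the 8 enzymes beside the 13 other enzymes of the pathway. Those 13 summed to 58.5, 45.6, 54.3 and 38.5 normalized counts in the controls and to 92.0, 85.7, 87.4 and 89.6 in the KD-labelled libraries, without overlap. Of the 13, 11 had a higher mean in the KD-labelled libraries, the exceptions being Mvk and Tm7sf2. Only 1 of the 13 reached the tested mean, and 0 were called by limma, 0 by edgeR and 0 by DESeq2, with 0 at an unadjusted p under 0.05. Acat2, which makes the acetoacetyl-CoA that Hmgcs1 uses, and Pmvk, phosphomevalonate kinase, named after their values were seen, had every KD-labelled library above every control at means of 4.502 against 15.1 and 3.06 against 8.30. Acat2 was called higher without the filter on the mean (log2 fold change 1.97) and without control 3 or control 5.

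Around the pathway, sterol sensing, transport and disposal gave no matching set of calls in the knockdown experiment. Of 14 genes of sterol sensing and SREBP processing, 3 were tested, 0 were called by limma, edgeR or DESeq2 and 0 had an unadjusted p under 0.05. The median log2 fold change of these 3 was −0.53, which was also that of Srebf2, the most abundant (SE 0.37, limma adjusted p = 0.302). Of 12 genes of cholesterol uptake, Lrp1, a lipoprotein receptor and the most abundant, was the 1 tested (log2 fold change −0.94, limma adjusted p = 0.0591). It had an unadjusted p under 0.05 and was called by edgeR. Cyp46a1, through which neurons discard cholesterol, was called lower, at a mean of 40.6 in the controls and 18.2 in the KD-labelled libraries (log2 fold change −1.14, SE 0.30, limma adjusted p = 0.00656), with no overlap. All 8 fits without a single library kept the call of Cyp46a1, and 1 of 8 other settings lost it (log2 fold changes −1.17 to −0.85 over those settings). Apoe, the other gene tested among 9 of turnover and efflux and the most abundant, had a log2 fold change of 0.59 (limma adjusted p = 0.0541) and passed with edgeR and DESeq2. Of 12 genes of fatty acid synthesis, 4 were tested with 0 called by limma, edgeR or DESeq2 and 0 at an unadjusted p under 0.05 (median log2 fold change 0.38, Scd2, the most abundant, 0.54, limma adjusted p = 0.209). None of 13 genes of the isoprenoid branch, led by Coq2, reached the tested mean.

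The aging experiment asked how neuronal RNA differs between young and old hippocampus. The enzymes were not shifted as a group, and the pair of Aged libraries disagreed with each other. Summed over the 8 enzymes, normalized counts were 4563, 5176 and 5032 in Young libraries 1, 2 and 3, and 3798 and 6352 in Aged libraries 2 and 3. One Aged library thus lay below and the other above all Young libraries. Of the 8, limma called 0, as it did over all 13712 tested genes (0%), where 1089 genes had an unadjusted p under 0.05, edgeR called 0 and DESeq2 called 138, none of the 8 among them. The median log2 fold change of the 8 was −0.04, beside −0.03 over all tested genes. It was −0.66 without Aged 3 and 0.46 without Aged 2.

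Hmgcs1 was at 529, 692 and 618.5 normalized counts in the Young libraries and at 388 and 895 in Aged 2 and Aged 3 (log2 fold change −0.05, SE 0.38). Aged 2 lay below and Aged 3 above every Young library. Sqle split in the same way, at 946, 1076 and 1137 in the Young and at 655 and 1626 in the Aged libraries (log2 fold change −0.02, SE 0.36). For Fdft1 the Young values of 747, 734 and 669 lay between Aged values of 375 and 981 (log2 fold change −0.24, SE 0.39). Dhcr7, at 261, 539.7 and 320.4 in the Young and 166 and 742 in the Aged libraries, did likewise (log2 fold change −0.02, SE 0.56). Each of these 4 enzymes was thus lowest in Aged 2 and highest in Aged 3 of all 5 libraries.

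Lss ran the other way, at 636, 685 and 431 in the Young libraries, 896 in Aged 2 and 236 in Aged 3 (log2 fold change −0.32, SE 0.49). It was highest where Hmgcs1, Fdft1, Sqle and Dhcr7 were lowest. Cyp51 was at 695, 654 and 1116 in the Young and at 366 and 951 in the Aged libraries (log2 fold change −0.44, SE 0.41), lowest in Aged 2 but highest in Young 3. Idi1 was at 291, 139 and 135 in the Young and 234 and 142 in the Aged libraries (log2 fold change 0.05, SE 0.51), all Aged values inside the Young range. Fdps alone had both Aged libraries, at 718 and 778, above the Young, at 458, 656 and 604 (log2 fold change 0.40, SE 0.31). That is 1 of 8 enzymes with both Aged above every Young, which 12.2% of all tested genes showed, and 0 of 8 with both below, which 12.5% showed. The choice of the 8 may have drawn on these values, so nothing is read from either share.

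**Figure D3:**
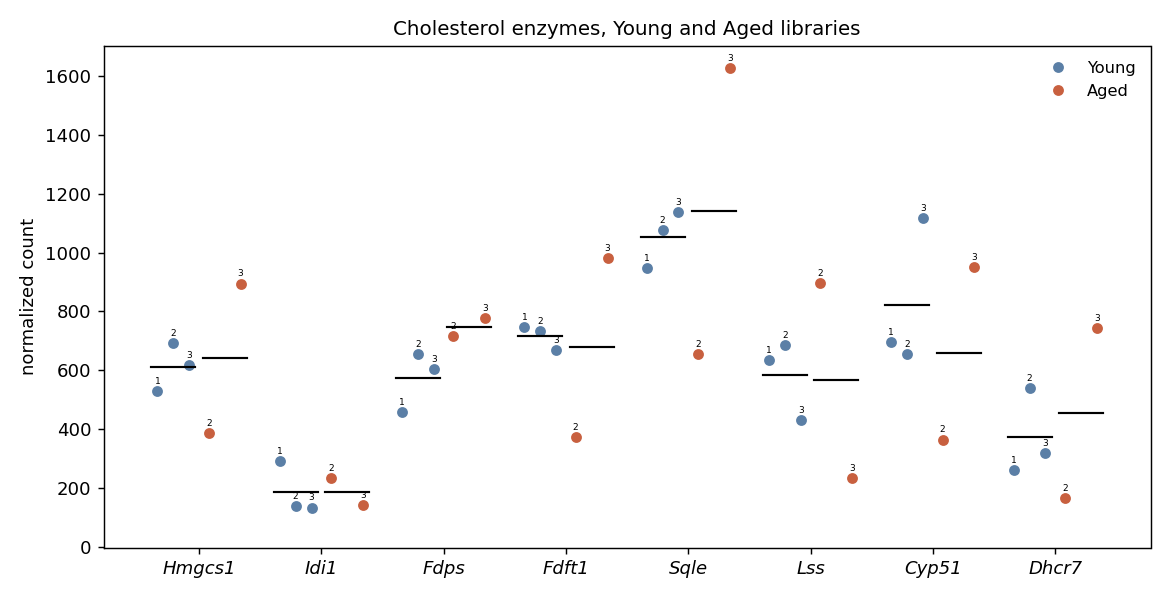
Normalized counts of the 8 enzymes in the Young (blue) and Aged (orange) libraries, with replicate numbers beside the points and group means as black lines. Aged 2 and Aged 3 lie on opposite sides of the Young libraries for Hmgcs1, Fdft1, Sqle, Lss and Dhcr7, and Fdps is the enzyme with both Aged libraries (718 and 778) above the Young.

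The plot of Young and Aged libraries shows that the spread between the Aged libraries was wider than any difference of group means for the 8 enzymes other than Fdps. Leaving out Aged 2 or Aged 3 gave fold changes of opposite sign for every enzyme but Fdps, for instance 1.06 and −1.10 for Dhcr7 and −1.28 and 0.65 for Lss, the remaining Aged library being assumed to vary like the Young. Marker sums of the same libraries are given because they too differed between Aged 2 and Aged 3, and their part was not tested. Microglial markers (8 tested of 8) summed to 378 in Aged 2 and 1082 in Aged 3, against 484, 852 and 596 in the Young libraries. Astrocyte markers (8 of 8, led by Slc1a2) summed to 4294 and 7128, against 8474, 7025 and 5606. Oligodendrocyte markers (8 of 8, led by Mbp) summed to 3170.5 and 4474, against 3116, 6822 and 5387, precursor markers (4 of 5, led by Olig1) to 12.8 and 198, against 252, 128 and 162, and newborn neuron markers (6 of 8, led by Tubb3, Draxin at 0) to 3876 and 4743, against 4904, 3420.3 and 4308. Of the endothelial markers, 1 of 6 was tested (Cldn5), and Pecam1 and Cdh5 were at 0. Limma called 0 genes of these lists and edgeR 0, with 2 astrocyte genes and 1 oligodendrocyte gene at an unadjusted p under 0.05, and DESeq2 called 1, an astrocyte gene.

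The 13 other enzymes were all tested with age, and limma called 0, with 2 at an unadjusted p under 0.05, 0 by edgeR and 0 by DESeq2. Their median log2 fold change was 0.15. Tm7sf2, named after its values were seen, had both Aged libraries above the Young, and Hsd17b7 and Nsdhl, named in the same way, had both below. Sterol sensing genes (median log2 fold change −0.09), uptake genes (0.07, led by Lrp1), turnover genes (0.06, 7 of 9 tested, led by Apoe), isoprenoid genes (0.03, led by Coq2) and fatty acid genes (−0.08, led by Scd2) held 0 genes called by limma and 0 by edgeR. At an unadjusted p under 0.05 these lists held 1, 1, 0, 0 and 2 genes, and DESeq2 called 1 gene, in the sterol sensing list. The 7 nuclear long noncoding RNAs, led by Malat1, had a median of 0.08 with 0 called by limma, edgeR or DESeq2 and 0 at an unadjusted p under 0.05, and Rn45s had 0.88, called by DESeq2 and not by limma. The noncoding RNA list summed to 439361 in Aged 2 and 238618 in Aged 3, against 387250, 253160 and 298268 in the Young libraries. Aged 2 thus lay above and Aged 3 below every Young library, and the part of this in the enzymes' values was not tested.

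The overexpression experiment asked what raising Ftl1 in neurons of young mice changes. None of the 8 enzymes separated the OE-labelled libraries from the GFP controls, and limma called 0 of them. Over all 14099 tested genes limma also called 0 (0%), with 1023 at an unadjusted p under 0.05, 0 by edgeR and 101 by DESeq2, none of the 8 among them. In either direction, 0 of the 8 had groups that did not overlap, against 0.582% of all tested genes. The median log2 fold change of the 8 was 0.41, beside 0.09 over all tested genes, with 6 above 0 and, after centring each library on its median, 4. The sum of the 8 ran from 6974 to 11740 normalized counts in the controls and from 7730 to 10697 in the OE-labelled libraries.

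Sqle was at 1120.2, 1089, 728, 782 and 549.7 normalized counts in GFP controls 9901, 9904, 9905, 9925 and 9926, and ran from 999 to 2105, with a median of 1352, in the OE-labelled libraries (log2 fold change 0.74, SE 0.23). The overlap was small, since OE-labelled library 9932 was the 1 below the highest controls. Cyp51 was at 1136, 695, 589.6, 652 and 238 in those controls and ran from 622 to 1461, with a median of 1161, in the OE-labelled libraries (log2 fold change 0.80, SE 0.33). Control 9926 was by far the lowest, and control 9901 lay among the OE-labelled libraries. Hmgcs1 was at 897, 1374, 272, 729.5 and 151 in the controls and ran from 385 to 1313, with a median of 912, in the OE-labelled libraries (log2 fold change 0.75, SE 0.48). Both the lowest and the highest value belonged to controls, 9926 and 9904.

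Fdps was at 1746, 1523, 5229, 2392.5 and 3877 in the controls and ran from 1454 to 2691, with a median of 1842, in the OE-labelled libraries (log2 fold change −0.49, SE 0.29). Controls 9905 and 9926 were highest for Fdps, and were the lowest of the controls for Hmgcs1, Cyp51 and Sqle. Idi1 was at 239, 498, 104, 199.5 and 1.16 in the controls and ran from 9.56 to 434, with a median of 264, in the OE-labelled libraries (log2 fold change 0.83, SE 1.21). Control 9926 and OE-labelled library 9895 had almost no Idi1, which gave it the widest error of the 8.

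For the remaining 3 enzymes, with all libraries in, the log2 fold changes were smaller than their standard errors. Fdft1 ran from 1250.2 to 3477, with a median of 2158, in the controls and from 1728 to 2874, with a median of 2325, in the OE-labelled libraries (log2 fold change 0.08, SE 0.23). Control 9905 was its highest library. Dhcr7 ran from 304 to 1175, with a median of 690.2, in the controls and from 480.3 to 972, with a median of 625.2, in the OE-labelled libraries (log2 fold change 0.03, SE 0.31), control 9926 being the highest. Lss ran from 176 to 469, with a median of 314, in the controls and from 67.1 to 443, with a median of 329, in the OE-labelled libraries (log2 fold change −0.26, SE 0.46), OE-labelled library 9918 being the lowest.

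**Figure D4:**
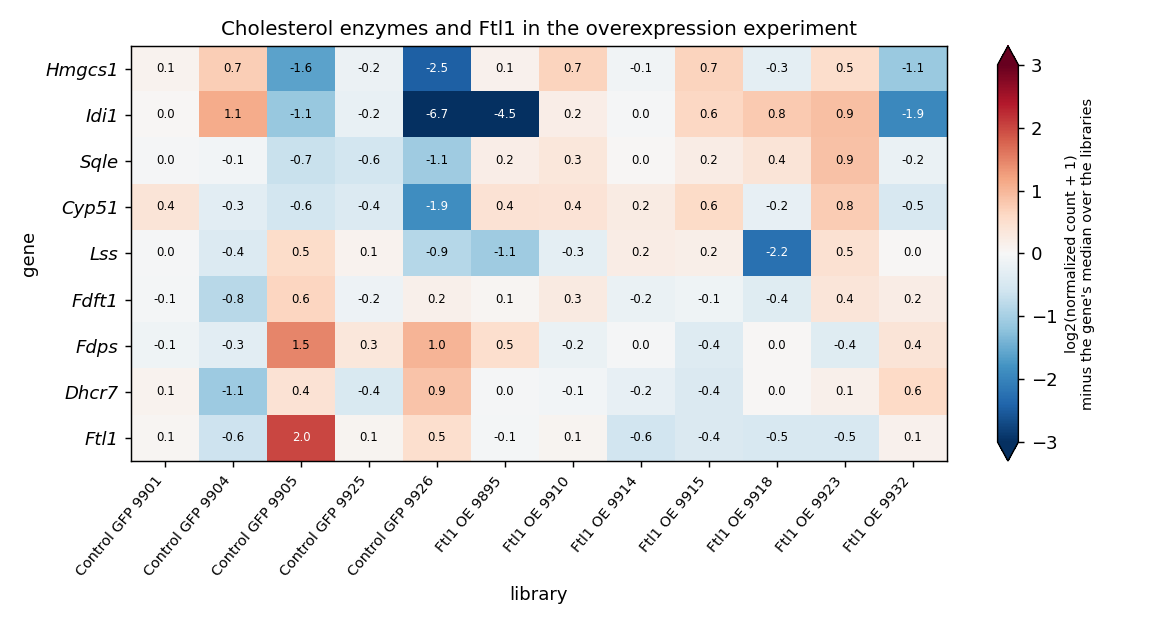
Heat map of the 8 enzymes and Ftl1 in the 12 libraries of the overexpression experiment, each cell giving log2(normalized count + 1) minus the gene's median over the libraries, red above and blue below. GFP controls 9905 and 9926 are low for Hmgcs1, Idi1, Sqle and Cyp51 and high for Fdps and Dhcr7, and control 9905 is the highest for Ftl1.

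The heat map sets GFP controls 9905 and 9926 apart from the other libraries. With both left out, a choice made after seeing the data, the median log2 fold change of the 8 enzymes was 0.19, limma called 0 of the 8 and 0 of all genes, and Hmgcs1 moved to −0.15, Idi1 to −0.88, Cyp51 to 0.36, Sqle to 0.49, Fdps to 0.03, Fdft1 to 0.37, Dhcr7 to 0.48, Lss to −0.28 and Ftl1 to −0.10. The higher Hmgcs1 and the lower Fdps of the OE-labelled libraries thus rested on those controls. Both had the lowest Malat1 of the 12 libraries, at 23359 and 32204 normalized counts with 44897 next, and the highest sums of newborn neuron markers, at 25360 and 13315 with 12577 next. Reads on Rn45s were 2.79% and 4.98% of these libraries, and between 1.35% and 2.86% in the OE-labelled ones. Markers of microglia (8 of 8 tested, 4 at an unadjusted p under 0.05, 0 called by limma or edgeR and 1 by DESeq2, led by C1qb) summed to 2900.5 to 6719 in the controls and 1599.8 to 3105 in the OE-labelled libraries, and the part of these features in the enzymes' values was not tested.

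The 8 enzymes did not vary as 1 block across the 12 libraries of the overexpression experiment. After the group means were subtracted from log2 levels, all pairs of enzymes were correlated as a description, since the libraries of a group share their treatment and 2 of them stand apart. Hmgcs1 followed Cyp51 (Pearson r 0.838, Spearman rho 0.86, n = 12) and Sqle (r 0.811, rho 0.727). Hmgcs1 ran opposite to Fdps (r −0.848, rho −0.909) and to Dhcr7 (r −0.861, rho −0.748). Fdft1 followed Dhcr7 (r 0.749, rho 0.685). Without controls 9905 and 9926 (n = 10) these were weaker with the same sign: 0.715 for Hmgcs1 and Cyp51, 0.668 for Hmgcs1 and Sqle, −0.734 for Hmgcs1 and Fdps, −0.657 for Hmgcs1 and Dhcr7, and 0.695 for Fdft1 and Dhcr7. Fdps and Fdft1, at r 0.641 over 12 libraries, were at 0.18 over the 10, while Idi1 and Fdps went from −0.684 to −0.832. Among 10467 genes with a mean of at least 100, those most like the mean log2 level of the 8 enzymes across the 12 libraries were Ncbp2 (Pearson r 0.961), Lmbr1 (0.957), Cat (0.949), Asah1 (0.94) and Bend5 (0.939). That mean was lowest in control 9926, at −1.01 on the log2 scale relative to its group, and in OE-labelled library 9895, at −0.49, the libraries that nearly lacked Idi1. Against the mean of the other enzymes, Cyp51 (r 0.77), Sqle (0.689), Hmgcs1 (0.535), Idi1 (0.405) and Lss (0.385) were positive. Fdps (−0.663), Dhcr7 (−0.598) and Fdft1 (−0.123) were negative, so the mean of the 8 does not stand for each enzyme.

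Of the 13 other enzymes, all tested, limma called 0 in the overexpression experiment, with 1 at an unadjusted p under 0.05 (Lbr), 0 by edgeR and 0 by DESeq2. Their median log2 fold change was 0.09, and −0.003 with every library centred on its median. Msmo1, a sterol methyl oxidase and the most abundant of the 13, had a log2 fold change of 0.69 (SE 0.37, limma adjusted p = 0.690). Sterol sensing genes (median log2 fold change 0.20, led by Srebf2), uptake genes (0.14, 11 of 12 tested, led by Lrp1), turnover genes (−0.05, 8 of 9 tested, led by Apoe), isoprenoid genes (0.28, led by Coq2), fatty acid genes (0.11, led by Scd2) and nuclear long noncoding RNAs (0.16, led by Malat1) held 0 genes called by limma, edgeR or DESeq2. At an unadjusted p under 0.05 they held 0, 0, 1, 0, 2 and 0 genes. Rn45s had a log2 fold change of −0.42 and was called by none of these tools. The other marker lists, for neurons, newborn neurons, oligodendrocytes, their precursors, astrocytes and endothelial cells, had medians of −0.01, 0.28, 0.02, −0.39, 0.52 and 1.14, with 0 genes called by limma, edgeR or DESeq2 and 0 at an unadjusted p under 0.05.

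**Figure D5:**
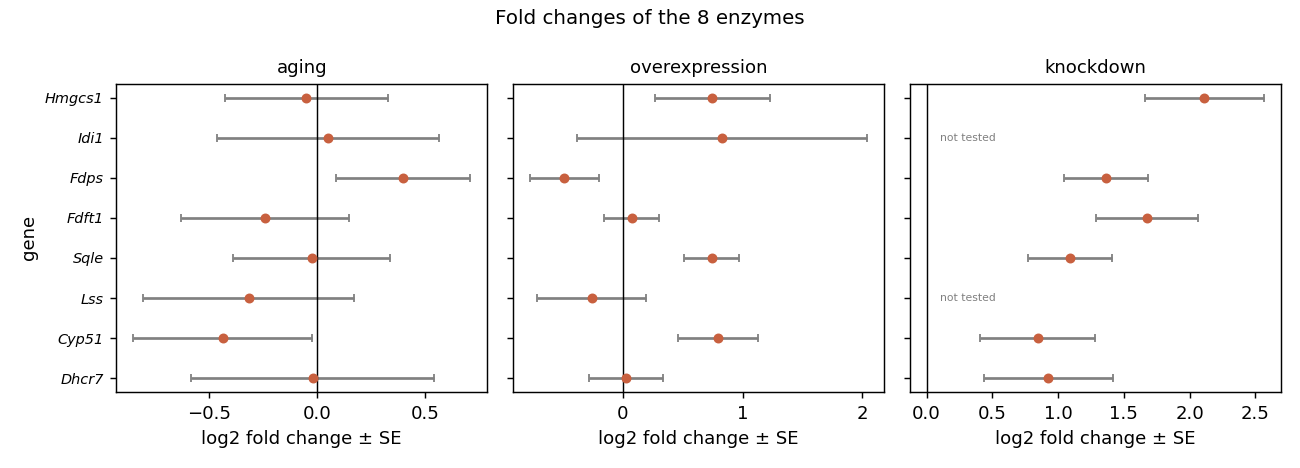
Log2 fold changes with their standard errors (bars) of the 8 enzymes in each experiment, positive values being higher in Aged, OE-labelled or KD-labelled libraries. In the knockdown experiment the 6 tested enzymes lie between 0.85 and 2.11, and Idi1 and Lss had means too low for the test.

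Side by side, the plot of fold changes gives Hmgcs1 −0.05 with age, 0.75 in the OE-labelled and 2.11 in the KD-labelled libraries. Sqle had −0.02, 0.74 and 1.09, and Fdft1 −0.24, 0.08 and 1.68. Fdps had 0.40, −0.49 and 1.37. Cyp51 had −0.44, 0.80 and 0.85, and Dhcr7 −0.02, 0.03 and 0.93. Idi1 (0.05 and 0.83) and Lss (−0.32 and −0.26) were tested with age and in the overexpression experiment alone. The experiments have separate controls, depths and normalizations, and the difference between them was not tested.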

How the data were processed

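The authors deposited, for each experiment, a table of normalized counts per gene and library (unit: signal), made, per the submitters' processing notes, with STAR, RSEM and DESeq2 on mm10. Columns of the authors' own comparison (mean, log2 fold change with its standard error, test statistic, p-value and adjusted p-value) are held in the same files and were not used. The methods of the study name Smart-seq2, modified, and Nextera; the sample labels name polyA-selected, strand-specific SureSelect libraries. Dividing each library by its smallest step returned whole reads for 100% of values (tolerance 0.01).

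Values were compared as log2(normalized count + 1) with limma 3.58.1 in R 4.3.3 (moderated variances with a trend, no term besides the group) over genes with a mean of at least 10, so fold changes of low genes are understated. Genes were called at a Benjamini-Hochberg adjusted p of 0.05 or less and, with age, 0.5 or more in absolute log2 fold change. On the recovered reads, edgeR 4.0.16 called 0 genes with age, 0 with overexpression and 420 with knockdown, and DESeq2 1.42.0 called 138, 101 and 348. The scripts were tested on simulated data. Alternatives were pseudocounts of 0.5 and 5, no filter, a mean of at least 100, TMM scaling, median centring, edgeR, DESeq2, a replicate block, and leaving out libraries. Exact intervals cover counting error only. Exon lengths and positions came from GENCODE M21 and promoters from RefSeq. Python 3.11.15, pandas 2.3.3, numpy 2.4.6, scipy 1.17.1 and matplotlib 3.10.9 were used.

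The 8 enzymes, the gene and marker lists and the tests were chosen with earlier results of these data known. Named were the 8 enzymes, Ftl1, genes of the pathway lists past a threshold, the most abundant gene of most lists, and the 5 genes most like the mean of the 8. Acat2, Pmvk, Tm7sf2, Hsd17b7 and Nsdhl were named after their values were seen. Some other genes of the lists, among them Mvk and Lbr, were also named for their values. Of 13 mitochondrially encoded genes, 0 were among the genes measured here. Some results of the lists are not reported here.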

Additional observations from a re-analysis of the deposited data

Results flagged for a closer look

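In each group of 4 or more libraries, the gap between the highest or lowest library and its nearest neighbour was divided by the group's range, for the 8 enzymes and Ftl1 (36 groups in all). Chance alone marks about 1 in 20 such groups, and 2 were marked. Ftl1 in GFP control 9905 of the overexpression experiment was at 28310 normalized counts, with 9953 in the next library, a gap of 0.774 of the range against a limit of 0.71. Lss in sh-Luc control 5 of the knockdown experiment was at 4.598 normalized counts, with 2.02 in the next library, a gap of 0.947 of the range against a limit of 0.829. That value of Lss stands for few reads, as all values of Lss in the knockdown libraries do.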

How the results depend on the processing

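Of 2135 values recomputed under other settings, 2031 counted as the same, a call kept, a count within 1.5 times or a fold change moved by less than the spread between libraries. No named gene called in either setting changed sign, but signs of uncalled genes did, among them Dhcr7 and Lss with age and Hmgcs1 and Idi1 in the overexpression experiment. DESeq2 called 138 genes with age and 101 in the overexpression experiment, where limma called 0. With single libraries left out, the median log2 fold change of the 8 enzymes with age ran from −0.66 to 0.46, that of the other 13 enzymes from −0.20 to 0.49 with age, from 0.021 to 0.274 in the overexpression and from −0.16 to 1.14 in the knockdown experiment, where 0 to 1 of the 13 was called. All genes called in the overexpression experiment then numbered 0 to 1 (1 without GFP control 9925). The Ftl1 ratio ran from 0.451 to 0.816 there, with an exact permutation p under 0.05 without GFP control 9904, and from 2.35 to 2.98 in the knockdown experiment, where 4 libraries against 3 cannot reach 0.05. In the knockdown experiment, without the filter 1 of the 13 was called. At a mean of at least 100, limma called 18 of 29 genes and none of the 8 enzymes was left to fit. The replicate block called 173 genes and 2 of the 6 enzymes (Fdft1 and Hmgcs1). In the knockdown experiment, libraries of the same number did not deviate together from their group means (r −0.034, −0.020 and −0.052). With age these values were −0.054 and 0.024, but the deviations of 2 Aged libraries mirror each other, so they cannot show pairing. Groups this small and shallow do not settle whether the numbers mark pairs. Without sh-Luc controls 2 and 5, chosen after seeing the data, 119 genes, 2 of the enzymes and 1 of the 13 were called, and the median of the 13 was 1.18. Without controls 2, 3 and 5, also chosen after seeing the data, 163 genes and 1 of the 13 were called. Median centring moved the median of all tested genes there from −0.01 to 0.10, and that of the 6 enzymes was then 1.34. The cause was not tested. Depth limits the knockdown experiment most, where Idi1 and Lss rest on 35 and 36 reads.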
